A study of Homo sapiens with 2 samples.

Results

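The miR-130 and miR-301 family was represented by 3 assays, miR-130a (assay number 4373145), miR-130b (4373144) and miR-301 (4373064), out of 365 miRNA assays on the card. They were chosen by name alone, after removal of the species prefix and the assay number. The samples were 1 RNA preparation from CL1-5 cells, an invasive human lung adenocarcinoma line, overexpressing ANGPTL1 (a secreted angiopoietin-like protein), and 1 from CL1-5 cells carrying the empty plasmid pcDNA3.1 as the control. Both were stable lines kept under the antibiotic G418 during selection; whether each line was a clone or a pool is not given in the sources used here. Mature miRNAs were measured by quantitative reverse-transcription PCR on a TaqMan low density array from 500 ng of total RNA. With 1 sample in each group there is no replicate error, no test was possible, and every difference below compares these 2 RNA preparations only.

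MicroRNAs are RNAs of about the length of a short primer that guide Argonaute proteins to messenger RNAs, mainly through their seed, bases 2 to 8 from the 5′ end. The members of this family carry the same seed although they come from separate genes, so their predicted targets overlap widely. Within the family, miR-130a is known for repressing the antiangiogenic homeobox genes MEOX2 (GAX) and HOXA5 in endothelial cells.

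The miRNA genes lie on 3 chromosomes in the RefSeq annotation of GRCh38.p14. MIR130A is at chr11:57641198-57641286 on the plus strand, inside the span of the long non-coding RNA gene MIR130AHG. MIR130B is at chr22:21653304-21653385 on the plus strand, 245 bases from the related MIR301B and inside the span of a transcribed pseudogene. MIR301A, of which MIR301 is listed as an older name, is at chr17:59151136-59151221 on the minus strand within the span of SKA2, which encodes a component of the kinetochore. MIR454, another same-seed gene, is also within SKA2, 13263 bases away. None of the 365 miRNA assays carried the name miR-301b or miR-454, so neither was analysed here under its own name.

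The deposited names of the 3 assays give no hairpin arm. Each of these names stands on 1 assay number, and in the naming of that period a lone name without an arm usually meant the main product, which for this family is the 3p arm. RefSeq's miRNA table held no entry for miR-130a in that arm, so the seed of miR-130a was not checked here. It matched 2 of the 3 members in that arm, miR-130b and miR-301a. These are shown with miR-301b, the closest relative of miR-301a, and with 1 miRNA of each near-seed group examined further on, so that the shared and the differing letters can be seen; capitals mark the seed.
miR-130b-3p: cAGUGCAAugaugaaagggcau
miR-301a-3p: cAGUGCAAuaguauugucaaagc
miR-301b-3p: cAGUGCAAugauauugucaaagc
miR-148a-3p: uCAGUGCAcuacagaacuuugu
miR-19a-3p: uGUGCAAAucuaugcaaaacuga
miR-130b-3p and miR-301a-3p had their first 9 bases in common and differed further on, with 11 of 22 positions equal when both were counted from the 5′ end. miR-301a-3p and miR-301b-3p had 21 of 23 positions equal, including the last 12. Whether the miR-301 assay also reads miR-301b was not tested.

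All 3 members were detected in both samples, with detection set at a threshold cycle below 35. The threshold cycle (Ct) counts how many rounds of PCR an assay needs before its fluorescence passes a fixed level, so fewer cycles mean more template, about 2 times more per cycle if amplification is perfect. miR-130a crossed at cycle 25.60 in ANGPTL1 cells, against 26.29 in control cells. miR-130b crossed at 26.36 in ANGPTL1 cells, against 25.98 in control cells. miR-301 crossed at 27.18 in ANGPTL1 cells, against 26.17 in control cells. The cycle of miR-130a was thus earlier with ANGPTL1, while those of miR-130b and miR-301 were later.

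These cycles placed the family among the more abundant miRNAs of the card. By threshold cycle miR-130a ranked 23 among the 158 miRNAs detected in ANGPTL1 cells and 41 among the 157 detected in control cells. miR-130b ranked 34 in ANGPTL1 cells and 37 in control cells. miR-301 ranked 45 in ANGPTL1 cells and 39 in control cells. Ranks between assays assume that all amplify with the same efficiency, which was not tested.

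The order of the members was not the same in both samples. In ANGPTL1 cells miR-130a was the earliest, followed by miR-130b and then miR-301, and the 3 assays spanned 1.58 cycles. In control cells miR-130b was the earliest, followed by miR-301 and then miR-130a, and they spanned only 0.31 cycles, so no member dominated there. The spread between wells of one assay is not given in the sources used here, so whether gaps as small as those in control cells exceed it is unknown. Expressed as a share of the summed level of the 3 assays, miR-130a made up 51.9% in ANGPTL1 cells and 30.1% in control cells. miR-130b made up 30.7% in ANGPTL1 cells and 37.3% in control cells. miR-301 made up 17.4% in ANGPTL1 cells and 32.7% in control cells. These shares need no reference RNA, but like the order of the members they assume that the 3 assays amplify alike, which was not tested. On that assumption miR-130a was the leading member in ANGPTL1 cells alone.

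**Figure D1:**
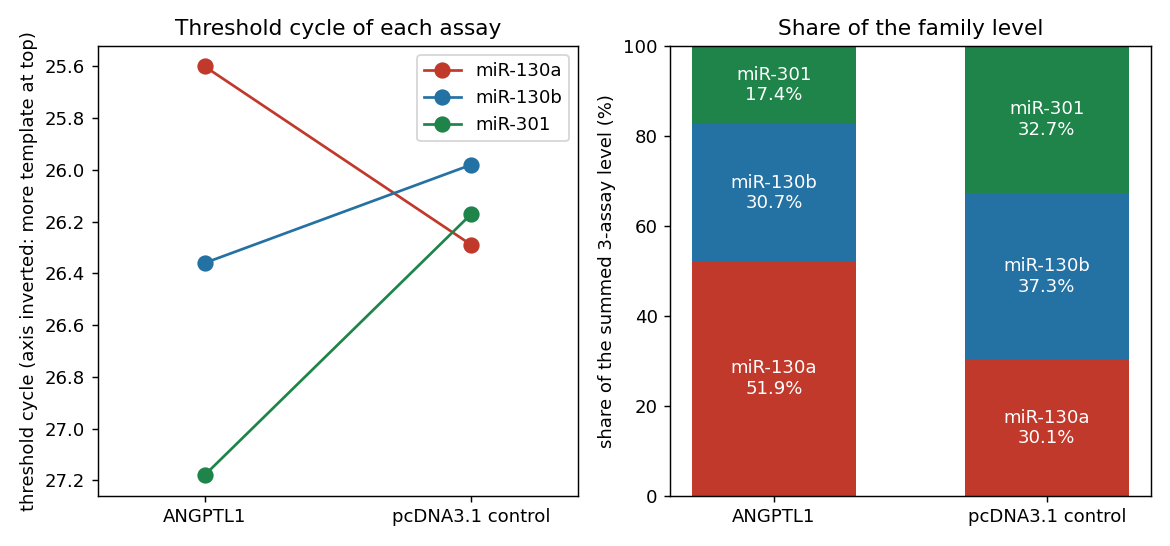
Left, threshold cycle (inverted axis, 1 value per assay and sample) of miR-130a, miR-130b and miR-301 in ANGPTL1 and pcDNA3.1 control cells; right, share in percent of the summed level of the 3 assays. The assays lie within 0.31 cycles in control cells and fan out over 1.58 cycles in ANGPTL1 cells, where miR-130a makes up 51.9% of the sum. The shares assume that the 3 assays amplify alike, which was not tested.

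Relative to RNU48, the small nucleolar RNA that served as endogenous control, the members did not share a direction. Delta Ct, the cycle of the assay minus that of RNU48 in the same sample, was 4.39 for miR-130a in ANGPTL1 cells and 5.50 in control cells. That is a log2 ratio of 1.11, or a level 2.16-fold higher in ANGPTL1 cells. For miR-130b delta Ct was 5.15 in ANGPTL1 cells and 5.19 in control cells, a log2 ratio of 0.04. For miR-301 it was 5.97 in ANGPTL1 cells and 5.38 in control cells, a log2 ratio of -0.59, or a level 1.51-fold lower in ANGPTL1 cells. One member was therefore higher, one close to level and one lower. The values in the authors' deposited table, 2.16, 1.03 and 0.664 for the fold of miR-130a, miR-130b and miR-301, follow from the same delta Ct values.

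By a size rule of 2-fold, 1 of the 3 members (miR-130a) was higher and 0 were lower. Among all 145 miRNAs detected in both samples the same rule gave 11 higher (7.59%) and 7 lower (4.83%), with a median log2 ratio of -0.01, against a median of 0.04 for the 3 members. Ordered from the highest ratio down, miR-130a stood at place 9, miR-130b at 66 and miR-301 at 118 of the 145. With so few members, a count of 1 is not a result about the family as a whole.

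**Figure D2:**
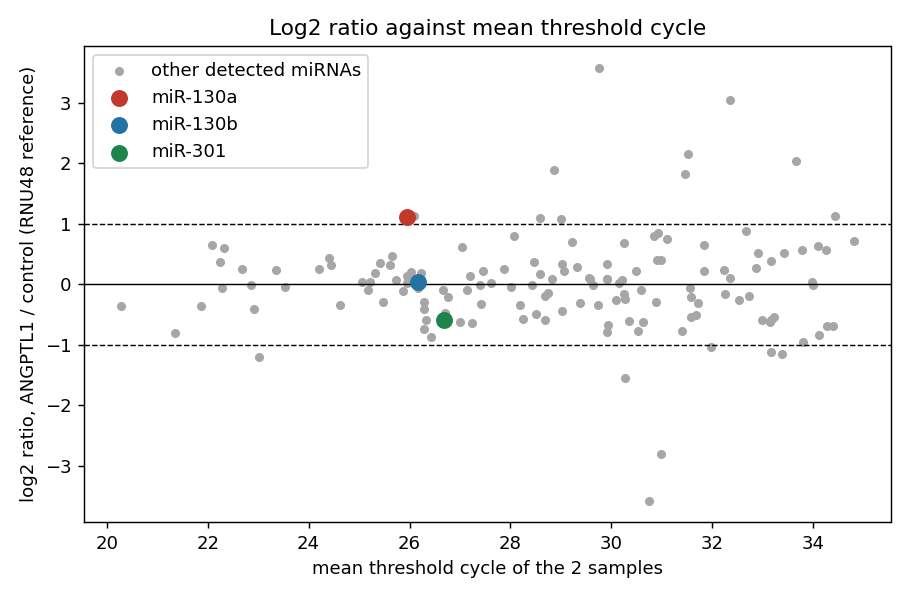
Log2 ratio of ANGPTL1 over control cells (RNU48 reference) against the mean threshold cycle for the 145 miRNAs detected in both samples, 1 point each; dashed lines mark 2-fold. miR-130a lies at 1.11, miR-130b at 0.04 and miR-301 at -0.59, and within 1 cycle of miR-130a only 1 other miRNA, miR-30a-5p, passes 2-fold.

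The members were then set beside miRNAs of similar abundance, since late cycles scatter more. Of the 24 other detected miRNAs whose mean cycle lay within 1 cycle of miR-130a, 1 had a ratio at least as high, miR-30a-5p at 1.12. The ratios of those 24 ranged from -0.87 to 1.12 with a median of -0.03. Of the 25 such miRNAs around miR-301, 5 had a ratio as low or lower. Around miR-130b, 11 of 26 had a ratio at least as high and 16 one as low or lower, 1 of them tied with it. miR-130a was thus near the upper edge of the miRNAs of its level, miR-301 in their lower part and miR-130b in the middle.

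The difference between members within a sample is independent of RNU48. Between miR-130a and miR-301 it was -1.58 cycles in ANGPTL1 cells and 0.12 cycles in control cells, so that their log2 ratios lay 1.70 apart, a 3.25-fold divergence. Between miR-130a and miR-130b it was -0.76 cycles in ANGPTL1 cells and 0.31 in control cells, with log2 ratios 1.07 apart. Between miR-130b and miR-301 it was -0.82 cycles in ANGPTL1 cells and -0.19 in control cells, with log2 ratios 0.63 apart. Hence 2 of the 3 pairs diverged by at least 2-fold, both of them pairs with miR-130a. Over all 10440 pairs of detected miRNAs, which share assays with each other, 27.1% did so. The 2 pairs rest on the same miR-130a values, so their count is not a result about the family as a whole.

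The summed level of the 3 assays was 9.18% of the RNU48 level in ANGPTL1 cells and 7.35% in control cells, 1.25-fold higher with ANGPTL1. Without normalization to RNU48 the sum was 1.07-fold lower in ANGPTL1 cells, so no direction is given for the family total. The sum weights the assays as if they amplified alike.

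RNU48 itself crossed threshold at cycle 21.21 in ANGPTL1 cells and 20.79 in control cells, so its use adds 0.42 to every log2 ratio. With the raw cycles the log2 ratios were 0.69 for miR-130a, -0.38 for miR-130b and -1.01 for miR-301. The 2-fold rule then took miR-301 as lower, among 29 of 145 miRNAs (20.0%), and no longer took miR-130a, with 6 of 145 (4.14%) higher. With the median of the 145 miRNAs as the reference the values were 1.12, 0.05 and -0.58 in the same order. miR-130a lay above 0 and miR-301 below 0 with each of these references, and miR-130b changed sign.

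**Figure D3:**
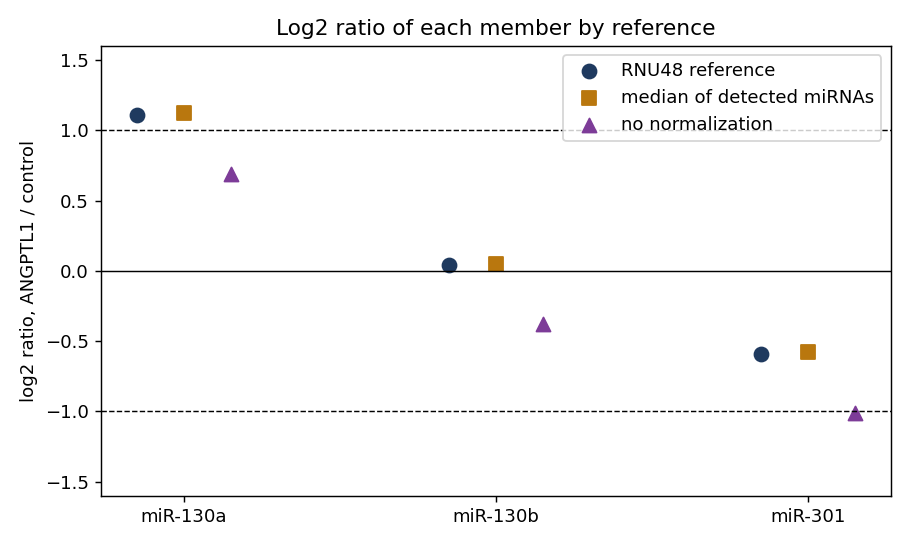
Log2 ratio of ANGPTL1 over control cells for miR-130a, miR-130b and miR-301 with RNU48 (circles), the median of detected miRNAs (squares) or no reference (triangles), 1 value each; dashed lines mark 2-fold. A change of reference shifts all members by the same amount, so their order could not change and is not a result. miR-130a passes 2-fold with RNU48 at 1.11 and not without normalization at 0.69.

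miRNAs with a near-identical seed were examined for comparison. The miR-148 group (miR-148a, miR-148b and miR-152, known for repressing the DNA methyltransferase DNMT1) and the miR-19 group (miR-19a and miR-19b, members of the miR-17-92 polycistron) each share a run of 6 bases of the family's seed at a shifted position. miR-148a crossed at cycle 30.09 in ANGPTL1 cells and 29.75 in control cells, a log2 ratio of 0.08. miR-148b crossed at 29.74 in ANGPTL1 cells and 29.00 in control cells, a log2 ratio of -0.32, and miR-152 had a ratio of -0.10. The cycles of miR-152 were 30.84 in ANGPTL1 cells and 30.32 in control cells. These later cycles place the miR-148 group below the 3 family members in level. Such comparisons of level between assays, here and for miR-19b below, assume that the assays amplify alike, which was not tested. miR-19a crossed at 26.35 in ANGPTL1 cells and 26.11 in control cells, a log2 ratio of 0.18. miR-19b was far more abundant, at 23.07 in ANGPTL1 cells and 22.64 in control cells, a log2 ratio of -0.01. None of the 5 near-seed miRNAs passed 2-fold, where 11 (7.59%) of all 145 detected miRNAs were higher and 7 (4.83%) lower. At these shares a count of 0 of 5 is not a result about the near-seed miRNAs. The median log2 ratio of the 5 was -0.01, the same as over all 145. Their ratios spanned 0.50, against 1.70 for the 3 same-seed members, and the difference in span was not tested.

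**Figure D4:**
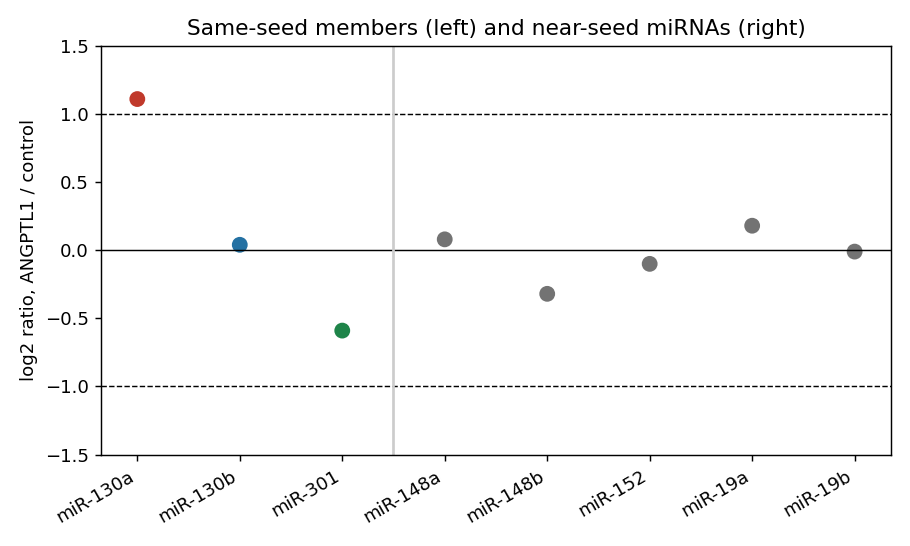
Log2 ratio of ANGPTL1 over control cells (RNU48 reference) for the 3 same-seed members, left, and 5 miRNAs with a near-identical shifted seed, right, 1 value each; dashed lines mark 2-fold. The near-seed miRNAs lie between -0.32 and 0.18, while the members reach from -0.59 to 1.11.

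The 3 detected miRNAs most like each member were found by the Euclidean distance between their cycles over the 2 samples. For miR-130a the nearest was miR-30a-5p at a distance of 0.21 cycles, with cycles of 25.74 in ANGPTL1 cells and 26.44 in control cells. miR-26b (0.62) and miR-320 (0.65) followed at a distance. For miR-130b the nearest were miR-374 (0.071 cycles), miR-19a (0.13) and miR-320 (0.23). For miR-301 they were miR-532 (0.089 cycles), miR-660 (0.29) and miR-151 (0.35). No other member was among the 3 nearest of any of them. With 2 samples this likeness describes level and difference only.

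Markers of the cell type were sparse. Of the epithelial miRNAs with 1 assay per name, 2 of 6 (miR-200c and miR-203) were detected in both samples and 3 stood at cycle 40, the last cycle, in both. miR-200c, a repressor of the transcription factors ZEB1 and ZEB2, crossed at cycle 30.77 in ANGPTL1 cells and 32.16 in control cells, a log2 ratio of 1.82, larger than that of miR-130a. miR-203 had a log2 ratio of -0.30, and miR-141 stood at cycle 35.40 in ANGPTL1 cells and 40 in control cells, outside detection in both. Of 4 blood cell miRNAs, 0 were detected in ANGPTL1 cells and 1, miR-142-3p at cycle 34.51, in control cells; of 4 muscle miRNAs only miR-133b was detected, and the liver miRNA miR-122a was not. The name of the endothelial miRNA miR-126 stands on 2 assay numbers, and which hairpin arm each reads is not given by the name. Assay 4373269 crossed at 29.95 in ANGPTL1 cells and 29.86 in control cells, and assay 4378064 at 26.70 in ANGPTL1 cells and 25.87 in control cells. The part of these markers in the levels of the 3 members was not tested.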

How the data were processed

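The authors deposited 3 tables. Per the file headers they held the average threshold cycle of each assay, delta Ct relative to RNU48 in the same sample, and the fold change (the ratio of ANGPTL1 over control cells, computed from the difference of the delta Ct values). Recomputing delta Ct from the cycles gave the deposited values to within 0.01. How many wells were averaged is not given in the sources used here, nor is the threshold. Groups came from the treatment label of each sample.

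The log2 ratio was deposited delta Ct in control cells minus that in ANGPTL1 cells, so positive means higher in ANGPTL1 cells. Detected meant a cycle below 35, and 40 was the last cycle. The size rule was 2-fold. No test was possible with 1 sample per group, and precision is unknown. Names on 2 assay numbers (14) were left out of list counts. Named were the members, RNU48, the near-seed list and the 3 miRNAs nearest each member. Markers of other cell types were named in addition. One further planned list is not reported here. The members were picked by a rule on names alone, but that rule and the lists were set with earlier results of these data known. Counting was tested on simulated data with planted differences well past 2-fold or none, and with an assumed noise. Values near the 2-fold rule were not tested in this way. Python 3.11.15, pandas 2.3.3 and numpy 2.4.6 were used.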

Additional observations from a re-analysis of the deposited data

How the results depend on the processing

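Without normalization the log2 ratio was 0.69 for miR-130a, -0.38 for miR-130b and -1.01 for miR-301, which left 0 members at least 2-fold higher and 1 lower; 6 of all detected miRNAs were then higher and 29 lower, and the median of the near-seed list was -0.43. Each ratio is lower by 0.42 there by construction, the difference in RNU48. The median reference, delta Ct recomputed from the cycles and the authors' deposited fold change moved no member by more than 0.01, but they repeat or shift the same cycles and so test little. A detection limit of 32 gave 6 miRNAs higher and 2 lower, a limit of 38 gave 23 and 11, and no limit gave 29 and 12. The last setting still omits any assay that reached cycle 40 in one of the samples. In place of 145, these settings compared 107, 176 and 187 miRNAs. The members' own calls could not change under these 3 settings, since the latest member cycle was 27.18. At 1.5-fold 24 were higher and 28 lower, with 1 member higher and 1 (miR-301) lower. At 4-fold 4 were higher and 2 lower, with 0 members in either direction. Amplification factors below 2 per cycle were chosen after seeing the data, and each was applied to all members alike, so differences in efficiency between assays were not tested. At 1.9 miR-130a was 2.04-fold higher. At 1.8 it was 1.92-fold higher, so 0 members passed 2-fold, and its share of the family was 49.1% in ANGPTL1 cells and 30.6% in control cells. No paired analysis was possible because there is a single sample per group, and for the same reason no replicate could be left out. The distance between members does not depend on the reference RNA, but wells and preparations vary by an unknown amount.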
